A study of Mus musculus with 4 samples.

Results

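The genes described here are 42 parts of the Wnt signalling pathway, listed by symbol: 9 ligands, 2 proteins that prepare ligands for secretion (Porcn and Wls), 10 frizzled receptors, 5 co-receptors, 7 genes of the R-spondin axis, 4 secreted inhibitors and 5 nuclear factors or target genes. They were listed by name, with earlier results of these data known, and they are 42 of the 52636 genes in the count tables. Each had at least 1 UMI (a counted RNA molecule) in the kept cells. Levels are UMIs summed over the cells of a class in a library and scaled to a total of 1000000 UMIs (CPM).

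Wnt proteins are lipid-modified secreted signals. Porcn attaches the lipid and Wls carries the ligand to the cell surface, where frizzled receptors with Lrp5 and Lrp6 pass the signal to beta-catenin and the Tcf and Lef factors, while Ror1, Ror2 and Ryk bind Wnt5a-type ligands. R-spondins, through Lgr4, Lgr5 and Lgr6, take the ubiquitin ligases Znrf3 and Rnf43 off the cell surface and so keep frizzled receptors there. In the mammary gland Wnt4 is known as a paracrine signal that hormone-sensing luminal cells send to basal cells, and Rspo1 is known as a luminal factor that acts with it.

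The 4 libraries are single-cell RNA profiles of EpCAM-sorted mammary cells from mice of 6 months. The groups are Esr1 Y541S with giredestrant, Y541S with vehicle, wild type (WT) with giredestrant, and WT with vehicle. All mice carried pellets of estradiol and progesterone. Giredestrant, an oral estrogen receptor antagonist and degrader, was given by mouth at 30 mg/kg a day for 4 days, and vehicle was MCT. Y541S is a tyrosine-to-serine change in the estrogen receptor. The labels state neither whether 1 or both alleles carry it nor how many mice make up a library. Each group is 1 library, so differences between libraries have no replicate check and no test.

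Cells were assigned to classes by summed UMIs of 4 genes each, none of them among the 42. Hormone-sensing luminal cells, gated on Esr1, Prlr, Areg and Foxa1 and split by the basal keratin Krt14, numbered 1499, 2074, 1034 and 627 Krt14-low cells in Y541S giredestrant, Y541S vehicle, WT giredestrant and WT vehicle. The Krt14-high ones numbered 980 in Y541S giredestrant, against 22, 9 and 15 in the other libraries in the same order. Secretory luminal cells (Wfdc18, Csn3, Elf5 and Kit) numbered 1330, 1553, 607 and 680, and basal cells (Acta2, Myh11, Mylk and Tagln) 3641, 2951, 998 and 4832. The labels name the source as mature luminal cells, yet basal cells, with 5883 to 7854 CPM of the smooth muscle actin gene Acta2, were the most frequent class in all libraries but WT giredestrant. Median depth per kept barcode was 6268, 15290, 21927 and 10868 UMIs in the same order, and pairs of libraries shared 10 to 29 barcodes. Wisp2, an estrogen-induced gene, stood at 0.683 CPM in Y541S giredestrant, 74.2 CPM in Y541S vehicle, 0.759 CPM in WT giredestrant and 87.1 CPM in WT vehicle in Krt14-low hormone-sensing cells. Greb1, another estrogen target, stood at 79.4 CPM in Y541S giredestrant, 77.9 CPM in Y541S vehicle, 4.16 CPM in WT giredestrant and 261 CPM in WT vehicle.

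Promoter windows of RefSeq on GRCm38.p6, from 250 bases before to 50 after a start site, matched 27 of the 42 genes by symbol, with 36 windows. The 4 shown belong to 3 ligands and to Ror2, the receptor with the largest difference between libraries. Averaged over libraries, Wnt4 was highest in Krt14-low hormone-sensing cells, Wnt5b in secretory cells and Wnt11 in basal cells among these 3 classes. They are written on the gene's strand, 5′ to 3′, and capitals mark CTTTGAT or its reverse complement ATCAAAG, letters known to bind Tcf and Lef factors. Wnt5b has 3 windows in the table and Wnt11 has 2, and those with a match are shown.
Wnt4, chr4:137277385-137277684, plus strand: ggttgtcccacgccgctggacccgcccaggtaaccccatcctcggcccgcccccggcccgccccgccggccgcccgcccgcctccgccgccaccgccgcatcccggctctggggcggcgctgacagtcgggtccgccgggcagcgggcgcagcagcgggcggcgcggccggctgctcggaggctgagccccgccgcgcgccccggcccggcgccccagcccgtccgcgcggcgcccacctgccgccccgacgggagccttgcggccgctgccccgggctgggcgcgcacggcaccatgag
Wnt5b, chr6:119449337-119449636, minus strand: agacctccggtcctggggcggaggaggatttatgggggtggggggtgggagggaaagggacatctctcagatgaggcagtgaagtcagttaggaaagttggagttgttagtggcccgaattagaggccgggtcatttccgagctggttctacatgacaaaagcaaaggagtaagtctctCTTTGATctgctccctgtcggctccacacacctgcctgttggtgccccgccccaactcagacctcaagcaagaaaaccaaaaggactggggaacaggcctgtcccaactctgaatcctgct
Wnt11, chr7:98834862-98835161, plus strand: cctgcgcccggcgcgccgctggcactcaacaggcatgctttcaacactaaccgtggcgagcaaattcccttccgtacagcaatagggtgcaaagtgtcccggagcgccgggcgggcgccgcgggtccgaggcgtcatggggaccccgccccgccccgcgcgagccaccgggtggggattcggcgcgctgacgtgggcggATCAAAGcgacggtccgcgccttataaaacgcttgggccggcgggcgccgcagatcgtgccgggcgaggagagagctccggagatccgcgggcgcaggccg
Ror2, chr13:53286075-53286374, minus strand: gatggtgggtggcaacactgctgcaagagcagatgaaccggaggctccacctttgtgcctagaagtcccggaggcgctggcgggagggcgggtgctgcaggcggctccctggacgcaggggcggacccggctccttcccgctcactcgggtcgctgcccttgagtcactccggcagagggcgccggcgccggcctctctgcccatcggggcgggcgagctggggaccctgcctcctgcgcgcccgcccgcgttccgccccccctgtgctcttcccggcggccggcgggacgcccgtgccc
The letters occurred in 2 of the 36 member windows, those printed for Wnt5b and Wnt11, and in 3.73% of all 32851 windows. The windows of Axin2, Tcf7 and Lef1 held no match.

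The epithelial classes differed widely in their Wnt genes. Averaged over libraries, 30 of the 42 were highest in basal cells, 7 in Krt14-low hormone-sensing cells (Wnt4, Wnt5a, Wnt7b, Porcn, Fzd4, Fzd6 and Ror2) and 5 in secretory cells (Wnt2, Wnt2b, Wnt5b, Rspo1 and Tcf7l2). Of those 7, only Wnt4 and Wnt7b were called higher than in basal cells in the test below. Ror2 owed its rank to WT giredestrant, as basal cells held more of it in each other library. Wnt2b was not called between secretory and basal cells, and secretory Wnt2 had at most 3 UMIs in a library. The class differences were tested with edgeR's quasi-likelihood test on UMIs summed per class and library, with the library as a block, and a gene was called at a Benjamini-Hochberg adjusted p under 0.05 over all 19548 genes and a fold change of 2 or more. Wnt2 and Rspo3 were too low to be tested. Of 40 tested members, 8 were higher and 17 lower in Krt14-low hormone-sensing cells than in secretory cells, where 28% of all genes were called. Against basal cells, 2 were higher and 26 lower in the Krt14-low hormone-sensing cells, with 39.4% of all genes called. In secretory over basal cells, 5 were higher and 26 lower, with 30.5% of all genes called. The median absolute log2 fold change of the members in these 3 comparisons was 1.79, 2.55 and 1.80, against 0.63, 0.83 and 0.65 over all genes. Fzd5, Fzd6 and Lrp5 were called in none of the 3. The 4 libraries differ in genotype and treatment. With the library as a block, p-values measure how far a class difference varies from library to library.

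**Figure D1:**
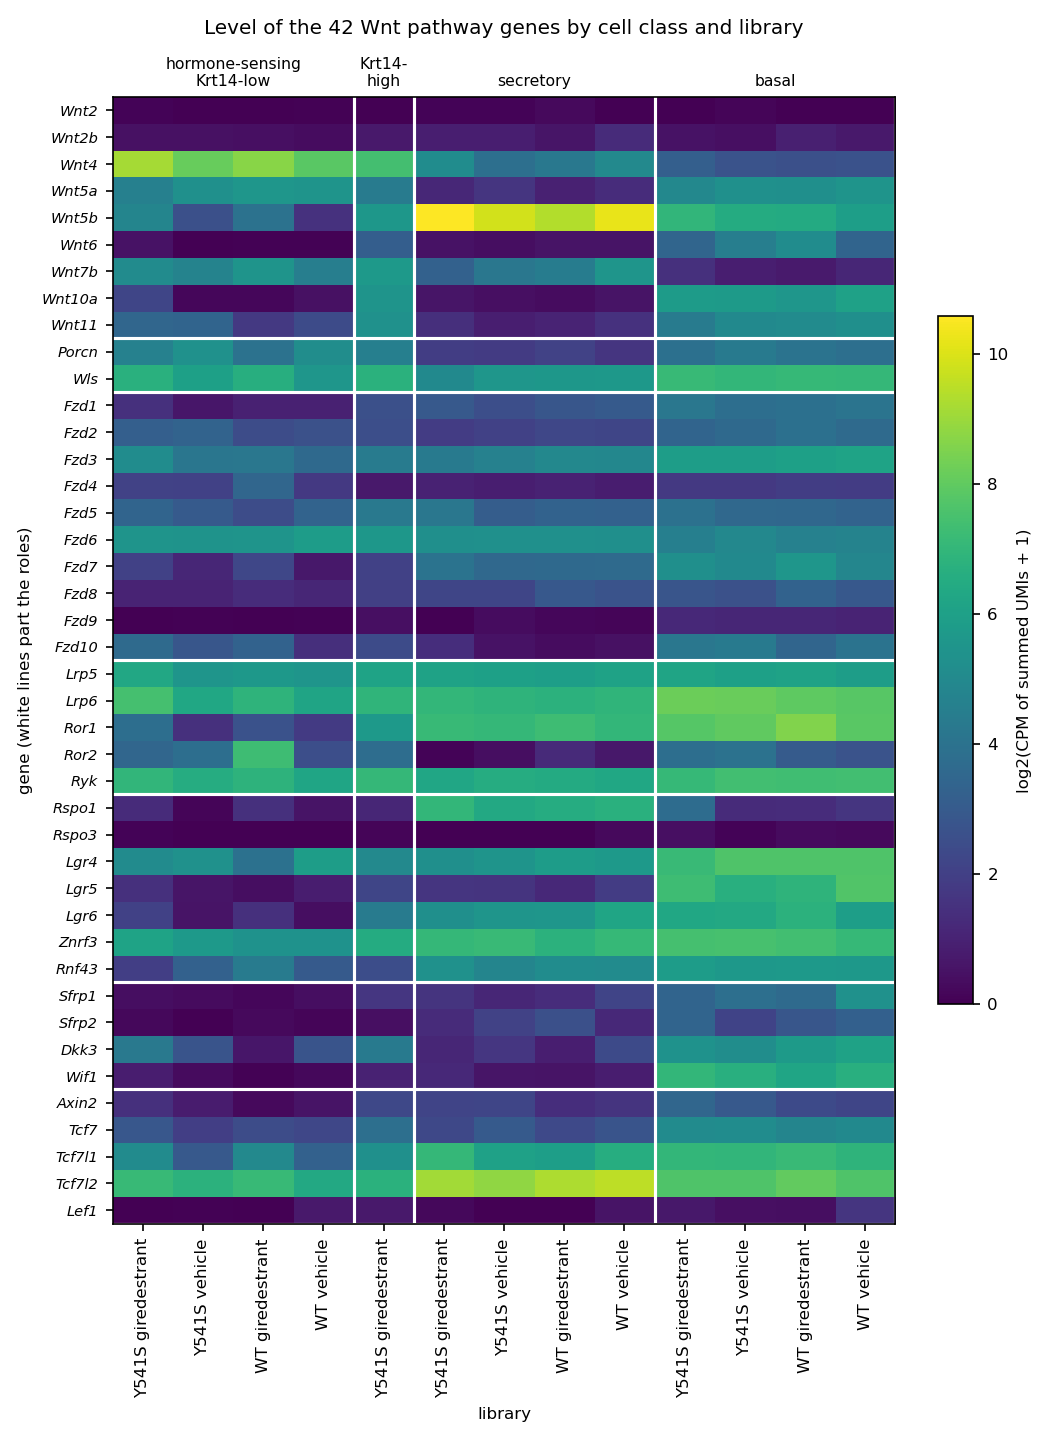
Level of each of the 42 genes as log2(CPM + 1), by gene (rows, grouped by role between white lines), cell class (column blocks, the single Krt14-high column being Y541S giredestrant) and library (columns), colours from dark (0) to yellow (high). Levels are to be read along a row, and Wnt4 is brightest in the hormone-sensing block, Wnt5b in the secretory block and Lgr5 and Wif1 in the basal block in every library.

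Among the ligands, Wnt4 marked hormone-sensing cells. It stood at 574 CPM in Y541S giredestrant, 275 CPM in Y541S vehicle, 413 CPM in WT giredestrant and 231 CPM in WT vehicle in Krt14-low hormone-sensing cells. In secretory cells it stood at 34.7 CPM in Y541S giredestrant, 13.4 CPM in Y541S vehicle, 18 CPM in WT giredestrant and 30.4 CPM in WT vehicle, and in basal cells between 4.99 and 8.24 CPM. The classes did not overlap, and the log2 fold change of Krt14-low hormone-sensing over basal cells was 5.82 ± 0.26 (SE), adjusted p = 6.39e-07. Secretory Wnt4 was 4.37% to 13.2% of the Krt14-low hormone-sensing level. Of the hormone-sensing gate genes in the same secretory cells, Areg was 0.511% to 1.54%, Prlr 1.59% to 4.46% and Esr1 3.69% to 5.66% of theirs. Cells past more than 1 gate were left out, which limits gate genes in other classes, here and below. Such percents therefore do not measure how much RNA of another class is present. The part of hormone-sensing RNA in the secretory Wnt4 level was not tested.

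Wnt5b, a ligand mostly studied outside the beta-catenin branch, marked secretory cells. It stood at 1533 CPM in Y541S giredestrant, 940.4 CPM in Y541S vehicle, 663 CPM in WT giredestrant and 1205 CPM in WT vehicle in them. In basal cells it stood at 125 CPM in Y541S giredestrant, 89 CPM in Y541S vehicle, 88.2 CPM in WT giredestrant and 59.6 CPM in WT vehicle. Secretory cells were higher than basal cells in each library, with a log2 fold change of 3.41 ± 0.49 (SE), adjusted p = 4.78e-04. Its relative Wnt5a had the opposite pattern, at 23.6 CPM in Y541S giredestrant, 38.5 CPM in Y541S vehicle, 46.2 CPM in WT giredestrant and 44 CPM in WT vehicle in Krt14-low hormone-sensing cells and 29.8 to 43.5 CPM in basal cells, against 0.939 to 2.10 CPM in secretory cells. The log2 fold change of Wnt5a was 4.81 ± 0.24 (SE), adjusted p = 3.86e-06 in Krt14-low hormone-sensing over secretory cells. Between Krt14-low hormone-sensing and basal cells it was -0.08 ± 0.19, which did not pass the test.

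Wnt7b was shared by the luminal classes, at 33.6 CPM in Y541S giredestrant, 25.3 CPM in Y541S vehicle, 43.1 CPM in WT giredestrant and 21.7 CPM in WT vehicle in Krt14-low hormone-sensing cells and 8.62 CPM in Y541S giredestrant, 17.1 CPM in Y541S vehicle, 21.1 CPM in WT giredestrant and 45 CPM in WT vehicle in secretory cells. Basal cells held 0.713 to 1.77 CPM. These luminal classes overlapped each other and stood above basal cells, by a log2 fold change of 4.68 ± 0.48 (SE), adjusted p = 4.17e-05 for Krt14-low hormone-sensing cells.

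Wnt10a, Wnt6 and Wnt11 were basal ligands. Wnt10a stood at 55.7 CPM in Y541S giredestrant, 53.6 CPM in Y541S vehicle, 46 CPM in WT giredestrant and 65 CPM in WT vehicle in basal cells, against 0.128 to 3.60 CPM in Krt14-low hormone-sensing and 0.268 to 0.507 CPM in secretory cells. Wnt6, which lies beside Wnt10a on chromosome 1 (GRCm38, 74771892 to 74785322 and 74791516 to 74804179, plus strand), stood at 9.97 CPM in Y541S giredestrant, 22.2 CPM in Y541S vehicle, 34.3 CPM in WT giredestrant and 9.64 CPM in WT vehicle in basal cells and at no more than 0.486 CPM in Krt14-low hormone-sensing and secretory cells. Although the genes are neighbours, the order of the libraries differed between them. Wnt11 had 20.1 to 37.4 CPM in basal cells, 2.33 to 10.1 CPM in Krt14-low hormone-sensing cells and 0.842 to 1.85 CPM in secretory cells. In secretory over basal cells the log2 fold change was -7.50 ± 0.76 (SE), adjusted p = 5.93e-05 for Wnt10a. It was -5.68 ± 0.62 for Wnt6 and -4.82 ± 0.51 for Wnt11, both past the test. Over Krt14-low hormone-sensing, secretory and basal cells, Wnt2b held 0.267 to 1.46 CPM and Wnt2 at most 0.201 CPM. The ligand-modifying enzyme Porcn was low in secretory cells, at 2.14 to 3.22 CPM, against 15.1 to 40.2 CPM in Krt14-low hormone-sensing and 13.8 to 19.0 CPM in basal cells, with a log2 fold change of 3.51 ± 0.35 (SE), adjusted p = 6.98e-05 in Krt14-low hormone-sensing over secretory cells. The carrier Wls was also lower in secretory cells, with a log2 fold change of -1.84 ± 0.19 (SE), adjusted p = 7.37e-05 over basal cells.

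Most receptors were basal, with exceptions. Of the 10 frizzled genes, 6 were lower in Krt14-low hormone-sensing than in basal cells and none higher. Fzd7, a receptor of basal and stem-like mammary cells, stood at 37.3 CPM in Y541S giredestrant, 31.5 CPM in Y541S vehicle, 46.7 CPM in WT giredestrant and 27.9 CPM in WT vehicle in basal cells, 11.1 to 15.2 CPM in secretory cells and 0.588 to 3.71 CPM in Krt14-low hormone-sensing cells, a log2 fold change of -4.30 ± 0.33 (SE), adjusted p = 6.83e-06 for hormone-sensing over basal. Fzd1 and Fzd8 had the same order of classes and passed the test for hormone-sensing over basal with -4.00 ± 0.19 and -2.49 ± 0.17. Fzd10 and Fzd2 were low in secretory cells, with log2 fold changes in secretory over basal of -5.00 ± 0.55 and -2.04 ± 0.27, both past the test. Fzd4 was higher in Krt14-low hormone-sensing than in secretory cells, at 3.29 CPM in Y541S giredestrant, 3.15 CPM in Y541S vehicle, 10.3 CPM in WT giredestrant and 2.35 CPM in WT vehicle against 0.777 to 1.01 CPM. Fzd3 was highest in basal cells at 57.9 to 69.0 CPM, and Fzd9 held 1.05 to 1.30 CPM there and at most 0.268 CPM in Krt14-low hormone-sensing and secretory cells. Fzd6 had 37.8 to 38.7 CPM in secretory cells of the 4 libraries, 42.8 to 57.4 CPM in Krt14-low hormone-sensing cells and 22.7 to 29.7 CPM in basal cells. These ranges did not overlap. The log2 fold change of hormone-sensing over basal cells was 0.80 ± 0.15 (SE), adjusted p = 0.0014, not called because it was under 2-fold.

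The alternative receptors Ror1 and Ror2 parted by class. Ror1 stood at 221 CPM in Y541S giredestrant, 253 CPM in Y541S vehicle, 378 CPM in WT giredestrant and 233 CPM in WT vehicle in basal cells and 128 to 157 CPM in secretory cells, against 1.80 to 13.2 CPM in Krt14-low hormone-sensing cells, with a log2 fold change of -5.97 ± 0.48 (SE), adjusted p = 8.88e-06 in hormone-sensing over basal cells. Ror2 was nearly missing from secretory cells, at 0.0845 to 1.41 CPM, and held 5.62 to 14.8 CPM in basal and 4.75 to 156.9 CPM in Krt14-low hormone-sensing cells. Its log2 fold change in hormone-sensing over secretory cells was 5.77 ± 0.97 (SE), adjusted p = 0.00125. WT giredestrant sets the upper end: in the other 3 libraries Krt14-low hormone-sensing cells held 4.75 to 13.3 CPM. The beta-catenin co-receptor Lrp6 stood at 230.4 to 297 CPM in basal cells, 71.8 to 173.7 CPM in Krt14-low hormone-sensing cells and 110.9 to 126 CPM in secretory cells, and Ryk was lower in secretory than in basal cells, with -1.13 ± 0.12 (SE), adjusted p = 8.44e-05.

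The R-spondin axis was split between a secretory source and mainly basal receptors. Rspo1 stood at 127 CPM in Y541S giredestrant, 83.7 CPM in Y541S vehicle, 93.7 CPM in WT giredestrant and 104 CPM in WT vehicle in secretory cells. Basal cells held 1.46 to 12.2 CPM and Krt14-low hormone-sensing cells 0.110 to 1.74 CPM. The log2 fold change of secretory over basal cells was 4.87 ± 0.61 (SE), adjusted p = 2.09e-04. Lgr5, an R-spondin receptor known as a stem cell marker, stood at 157 CPM in Y541S giredestrant, 102 CPM in Y541S vehicle, 117 CPM in WT giredestrant and 209 CPM in WT vehicle in basal cells, against 1.34 to 2.72 CPM in secretory and 0.309 to 1.74 CPM in Krt14-low hormone-sensing cells, and its log2 fold change in secretory over basal cells was -6.36 ± 0.29 (SE), adjusted p = 1.51e-06. Lgr6 was shared by basal cells (59.2 to 109.3 CPM) and secretory cells (37.3 to 74.5 CPM), with 0.320 to 3.16 CPM in Krt14-low hormone-sensing cells. Lgr4 stood at 143.9 to 203 CPM in basal cells, 37.4 to 56.2 CPM in secretory and 14.5 to 58.5 CPM in Krt14-low hormone-sensing cells. Znrf3 and Rnf43, the ligases that remove frizzled receptors, were lower in Krt14-low hormone-sensing cells than in both other classes, with log2 fold changes against secretory cells of -1.24 ± 0.12 and -1.78 ± 0.44, both past the test.

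All 4 inhibitors were lower in secretory than in basal cells, and all 4 were lower in Krt14-low hormone-sensing than in basal cells. Wif1, which binds ligands directly, stood at 127 CPM in Y541S giredestrant, 101 CPM in Y541S vehicle, 73.1 CPM in WT giredestrant and 101 CPM in WT vehicle in basal cells and at no more than 1.35 CPM in Krt14-low hormone-sensing and secretory cells, a log2 fold change of -8.67 ± 0.36 (SE), adjusted p = 5.11e-07 for hormone-sensing over basal. Sfrp1 and Sfrp2 are frizzled-like decoys, and Sfrp1 had 9.76 to 39.5 CPM in basal cells and 0.140 to 0.320 CPM in Krt14-low hormone-sensing cells. Dkk3, a member of the dickkopf family, had 35.9 to 68.0 CPM in basal cells, 0.562 to 18.3 CPM in Krt14-low hormone-sensing and 0.872 to 4.18 CPM in secretory cells. Of the nuclear genes, Tcf7l2 marked secretory cells at 554 CPM in Y541S giredestrant, 454 CPM in Y541S vehicle, 628 CPM in WT giredestrant and 748 CPM in WT vehicle, against 199.7 to 261 CPM in basal cells, with a log2 fold change of 1.23 ± 0.15 (SE), adjusted p = 1.98e-04. Tcf7 marked basal cells at 26.8 to 34.0 CPM, against 2.93 to 6.89 CPM in Krt14-low hormone-sensing and secretory cells. The beta-catenin target Axin2 stood at 10.3 CPM in Y541S giredestrant, 6.83 CPM in Y541S vehicle, 4.18 CPM in WT giredestrant and 3.64 CPM in WT vehicle in basal cells, 1.61 to 3.63 CPM in secretory cells and 0.197 to 1.80 CPM in Krt14-low hormone-sensing cells. Its log2 fold change in hormone-sensing over basal cells was -3.22 ± 0.30 (SE), adjusted p = 2.33e-05.

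Between libraries, a member is called higher or lower where the relative log2 ratio (the log2 ratio of CPM minus that of the median gene with 20 or more UMIs over both libraries) reached 1 in size and its exact 95% interval lay on the same side of 0. The interval covers counting error only. The median gene lay at a log2 ratio of 0.34 for giredestrant over vehicle in Y541S and 0.44 in WT in Krt14-low hormone-sensing cells, and between -0.10 and 0.15 in the other 10 comparisons. Across the 12 comparisons 28 members were called at least once, 12 were compared and never called (Wls, Fzd2, Fzd3, Fzd6, Fzd8, Fzd9, Lrp5, Lrp6, Ryk, Znrf3, Tcf7 and Tcf7l2), and Wnt2 and Rspo3 had too few UMIs. The comparisons share libraries and are given side by side. No share over all genes is given beside the 28, so this count does not set the members apart from other genes.

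In Krt14-low hormone-sensing cells, giredestrant over vehicle gave 11 members higher and 3 lower of 35 in Y541S, where 24.9% of all genes were called, and 9 higher and 6 lower of 31 in WT, where 23.6% were called. Y541S over WT gave 8 higher and 3 lower of 33 under giredestrant (25.1% of all genes), and 4 higher and none lower of 33 under vehicle (8.58%). With cells thinned to 3000 UMIs and gated again, giredestrant over vehicle gave 5 called members in Y541S and 7 in WT. Cells under 3000 UMIs are dropped there: 19.2% of kept cells in Y541S giredestrant, 2.62% in Y541S vehicle, 2.15% in WT giredestrant and 5.10% in WT vehicle. Markers of basal cells moved with the comparisons that hold the Y541S giredestrant library: the list of 7 basal markers, all detected, summed to 175 CPM in Y541S giredestrant, 20.6 CPM in Y541S vehicle, 17.6 CPM in WT giredestrant and 28.1 CPM in WT vehicle in these cells, against 6741 to 8186 CPM in basal cells. Trp63, the basal factor, stood at 43.3 CPM in Y541S giredestrant, 1.21 CPM in Y541S vehicle, 1.24 CPM in WT giredestrant and 2.51 CPM in WT vehicle, and Acta2 at 6.15 to 30.2 CPM. In cells with under 3 UMIs per 10000 of each other gate, a setting chosen after seeing the data, giredestrant over vehicle gave 12 called members in Y541S and 13 in WT, and Y541S over WT gave 15 under giredestrant and 3 under vehicle. The shares over all genes given here are those of the main setting. The counts in thinned cells and in cells low in the other gates have no such share beside them.

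The hormone-sensing ligand Wnt4 was higher with giredestrant in both genotypes without reaching 2-fold over the median gene, at relative log2 ratios of 0.72 (95% interval 0.68 to 0.76) in Y541S and 0.40 (95% interval 0.35 to 0.44) in WT. Without that shift the log2 ratio was 1.06 in Y541S, past 2-fold. Cells with a Wnt4 UMI were 1268 of 1499 cells in Y541S giredestrant, 1927 of 2074 cells in Y541S vehicle, 966 of 1034 cells in WT giredestrant and 580 of 627 cells in WT vehicle, and the top 1% of cells held 4.09% to 5.91% of its UMIs. These shares were not thinned and depend on depth as well as level. Median depth of these cells was 9260, 25121, 29583.5 and 28914 UMIs in the same order. Wnt5a was lower with giredestrant in Y541S, at -1.05 (95% interval -1.21 to -0.89), and was -0.37 in WT, which was not called. The call in Y541S was lost without the median shift, after thinning and in cells with no Krt14 UMI. Wnt11 stood at 10.1 CPM in Y541S giredestrant, 9.63 CPM in Y541S vehicle, 2.33 CPM in WT giredestrant and 4.33 CPM in WT vehicle. It was higher in Y541S than in WT under giredestrant, with a relative log2 ratio of 2.10 (95% interval 1.71 to 2.50), and under vehicle, with 1.03 (95% interval 0.69 to 1.38), where the call was lost after thinning. Porcn stood at 23.8 CPM in Y541S giredestrant, 40.2 CPM in Y541S vehicle, 15.1 CPM in WT giredestrant and 35.9 CPM in WT vehicle, so both giredestrant libraries were below both vehicle libraries. Its relative log2 ratio was -1.69 (95% interval -1.86 to -1.53) in WT and -1.10 (95% interval -1.26 to -0.94) in Y541S, and the Y541S call was lost without the median shift and after thinning.

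Wnt10a and Wnt5b were also called in these cells, next to markers of the classes where they are highest. Wnt10a had 58 UMIs in Y541S giredestrant, 7 UMIs in Y541S vehicle, 5 UMIs in WT giredestrant and 7 UMIs in WT vehicle, a relative log2 ratio of 4.47 (95% interval 3.33 to 5.84) for giredestrant over vehicle in Y541S, beside the Trp63 values above. It was 6.46% of the basal level in Y541S giredestrant, where Acta2, a gate gene limited by the gating, was 0.456% and Krt5 0.718% of theirs. Trp63 went the other way: by its values in both classes of that library, it was a larger part of its basal level than Wnt10a. The part of basal RNA in the Wnt10a level was not tested. In cells low in the other gates the Wnt10a ratio was 4.51. Wnt5b stood at 27.4 CPM in Y541S giredestrant, 4.97 CPM in Y541S vehicle, 14.8 CPM in WT giredestrant and 1.87 CPM in WT vehicle, higher in both giredestrant libraries, with ratios of 2.12 in Y541S and 2.54 in WT. These levels were 1.78% in Y541S giredestrant, 0.528% in Y541S vehicle, 2.22% in WT giredestrant and 0.155% in WT vehicle of the secretory level. The secretory gate gene Elf5 was 1.30% in Y541S giredestrant, 0.753% in Y541S vehicle, 1.64% in WT giredestrant and 0.285% in WT vehicle of its own, and Wfdc18 0.476% in Y541S giredestrant, 0.204% in Y541S vehicle, 0.835% in WT giredestrant and 0.186% in WT vehicle. As percents of the secretory level, Wnt5b, Elf5 and Wfdc18 shared the order of libraries, highest in WT giredestrant and lowest in WT vehicle. In CPM, Wnt5b was highest in Y541S giredestrant. The top 1% of cells held 41.7% in Y541S giredestrant, 72.7% in Y541S vehicle, 45.5% in WT giredestrant and 45.7% in WT vehicle of the Wnt5b UMIs. In cells low in the other gates the Wnt5b ratio was 2.35 in Y541S and 1.33 in WT, and after thinning it was -0.53 in WT. Rspo1 and Lgr6, on 6 to 62 UMIs a library each, were called higher with giredestrant in both genotypes. In cells low in the other gates Rspo1 was called in neither genotype, at 2.63 in Y541S and 0.04 in WT, while Lgr6 was called in both, at 3.41 in Y541S and 2.24 in WT. After thinning Lgr6 was called in neither, and Rspo1 was -0.56 in WT.

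Among receptors, Ror2 had the largest difference. It stood at 10.1 CPM in Y541S giredestrant, 13.3 CPM in Y541S vehicle, 157 CPM in WT giredestrant and 4.75 CPM in WT vehicle, with WT giredestrant far above the other 3. The relative log2 ratio of giredestrant over vehicle was 4.60 (95% interval 4.30 to 4.92) in WT, and in Y541S it was -0.73 (95% interval -0.99 to -0.49), which did not reach 2-fold. In Y541S over WT it was -3.97 (95% interval -4.21 to -3.75) under giredestrant and 1.35 (95% interval 1.03 to 1.69) under vehicle. Cells with a Ror2 UMI were 113 of 1499 cells in Y541S giredestrant, 312 of 2074 cells in Y541S vehicle, 760 of 1034 cells in WT giredestrant and 40 of 627 cells in WT vehicle, and in WT giredestrant the top 1% of cells held 9.26% of its UMIs. After thinning to 3000 UMIs, 31.7% of WT giredestrant cells held one, against 1.29% of WT vehicle cells. These Ror2 calls held under every alternative setting. Secretory cells of the same library held 1.41 CPM and basal cells 7.23 CPM.

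Of the frizzled genes, giredestrant over vehicle called 4 in WT and 2 in Y541S. Fzd4 stood at 3.29 CPM in Y541S giredestrant, 3.15 CPM in Y541S vehicle, 10.3 CPM in WT giredestrant and 2.35 CPM in WT vehicle and had a relative log2 ratio of 1.69 (95% interval 1.24 to 2.18) for giredestrant over vehicle in WT, a call lost after thinning. Fzd10 stood at 11.7 CPM in Y541S giredestrant, 6.09 CPM in Y541S vehicle, 8.96 CPM in WT giredestrant and 1.71 CPM in WT vehicle, with WT vehicle lowest, and had 1.95 (95% interval 1.42 to 2.52) in WT. Fzd7 was higher with giredestrant at 2.22 (95% interval 1.33 to 3.26) in WT on 132 and 11 UMIs, and Fzd5 was lower, at -1.44 (95% interval -1.76 to -1.13). In Y541S, Fzd1 and Fzd7 were called higher on 29 and 51 UMIs with giredestrant, and both calls were lost after thinning. Ror1 stood at 13.2 CPM in Y541S giredestrant, 1.80 CPM in Y541S vehicle, 5.28 CPM in WT giredestrant and 2.46 CPM in WT vehicle and was higher with giredestrant in Y541S, at 2.54 (95% interval 2.18 to 2.90), beside the basal markers given above. In cells with no Krt14 UMI the ratio was 2.97, called. In Y541S over WT under giredestrant Ror1 was 1.31, and -0.17 where cells past several gates were assigned to 1 of them by a fixed priority.

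**Figure D2:**
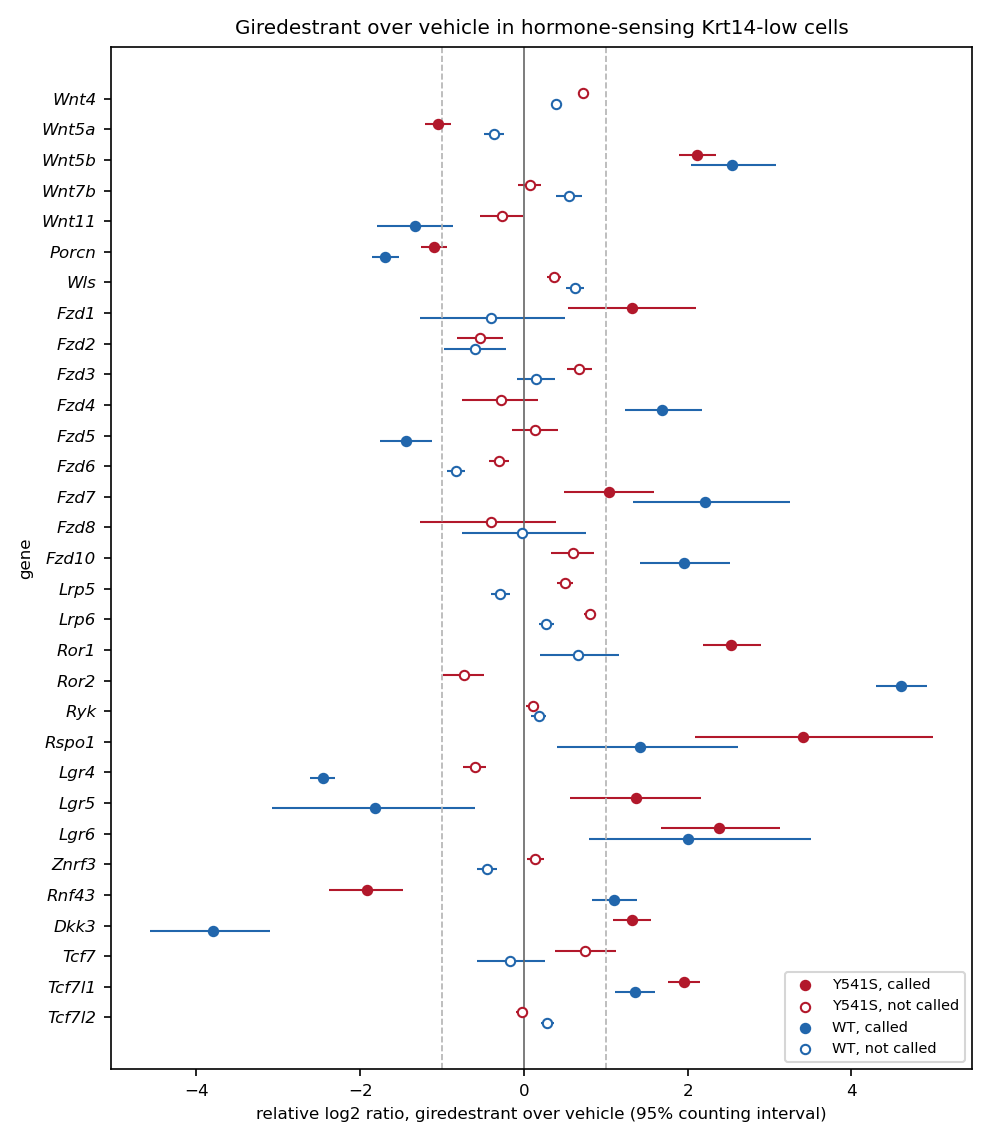
Relative log2 ratio of giredestrant over vehicle (horizontal axis) for each member with 20 or more UMIs in both genotypes (rows), in Krt14-low hormone-sensing cells of Y541S (red) and WT (blue), with exact 95% counting intervals as lines. Filled points are called and open points are not; dashed lines mark 2-fold, and Ror2 in WT lies farthest right at 4.60 while Rnf43, Dkk3 and Lgr5 have called points on opposite sides of 0.

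In the R-spondin axis Rnf43 and Lgr4 stood out by their counts. Rnf43 stood at 2.92 CPM in Y541S giredestrant, 8.67 CPM in Y541S vehicle, 20.3 CPM in WT giredestrant and 7.0 CPM in WT vehicle, lowest in Y541S giredestrant and highest in WT giredestrant. Its relative log2 ratio for giredestrant over vehicle was -1.92 (95% interval -2.38 to -1.48) in Y541S and 1.10 (95% interval 0.83 to 1.38) in WT, and both calls held under every setting. Lgr4 stood at 33.8 CPM in Y541S giredestrant, 40.4 CPM in Y541S vehicle, 14.5 CPM in WT giredestrant and 58.5 CPM in WT vehicle, lowest in WT giredestrant. Its ratio was -2.45 (95% interval -2.61 to -2.30) for giredestrant over vehicle in WT, and in Y541S it was -0.60, not called. Lgr5 rested on 11 to 29 UMIs a library, with 1.36 in Y541S and -1.81 in WT, which was 0.17 with cells of several gates kept by priority.

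Of the inhibitors, Dkk3 stood at 18.3 CPM in Y541S giredestrant, 5.78 CPM in Y541S vehicle, 0.562 CPM in WT giredestrant and 5.77 CPM in WT vehicle, highest in Y541S giredestrant and lowest in WT giredestrant. The relative log2 ratios of giredestrant over vehicle were 1.32 (95% interval 1.09 to 1.55) in Y541S and -3.80 (95% interval -4.57 to -3.10) in WT, and the WT call was lost after thinning. Along the Krt14 steps of Y541S giredestrant described below, Dkk3 stood at 20.1, 16.1, 17.1, 21 and 21.4 CPM, with no order. Dkk3 was highest in basal cells, and the part of basal RNA in these values was not tested. Tcf7l1, a factor that acts mostly as a repressor of Wnt targets, stood at 33.6 CPM in Y541S giredestrant, 6.84 CPM in Y541S vehicle, 30.7 CPM in WT giredestrant and 8.87 CPM in WT vehicle, with both giredestrant libraries above both vehicle libraries. Its ratios were 1.95 (95% interval 1.76 to 2.15) in Y541S and 1.35 (95% interval 1.12 to 1.60) in WT, where the call was lost with cells weighted equally. It was 9.33% to 51.0% of the secretory level, where Wfdc18 was under 0.84% and Elf5 stood at the percents given above. Both are gate genes limited by the gating. The part of secretory RNA in the Tcf7l1 level was not tested. Axin2 rested on 29 UMIs in Y541S giredestrant, 42 UMIs in Y541S vehicle, 7 UMIs in WT giredestrant and 9 UMIs in WT vehicle, and was higher in Y541S than in WT under giredestrant, at 3.18 (95% interval 1.96 to 4.61). Tcf7l2 stood at 83.4 to 138.2 CPM and was not called.

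**Figure D3:**
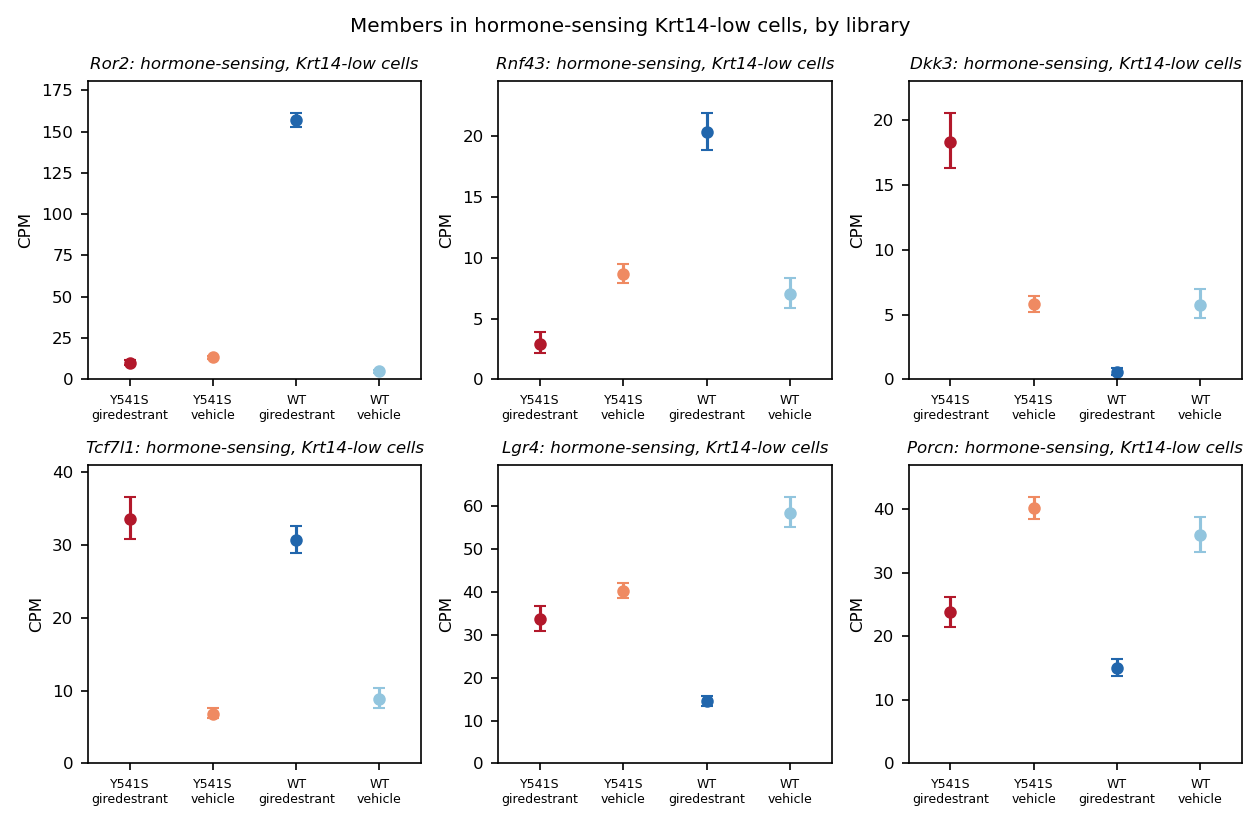
CPM in Krt14-low hormone-sensing cells (vertical axes, from 0) of 6 members in the 4 libraries (horizontal axes), with exact 95% Poisson intervals for counting error. Ror2 reaches 156.9 CPM in WT giredestrant and is at 13.3 CPM or less in the others, Tcf7l1 is higher and Porcn lower in both giredestrant libraries, and Rnf43 is lowest in Y541S giredestrant.

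In secretory cells, giredestrant over vehicle gave 5 members higher and 1 lower of 35 in Y541S (13.1% of all genes called), and 1 higher and 5 lower of 34 in WT (6.9%). Y541S over WT gave 7 higher and 3 lower of 35 under giredestrant (14.6%), and 1 higher and 4 lower of 34 under vehicle (5.68%). The 6 calls in WT fell to 1 after thinning, and the 6 in Y541S to 3. Wnt5b, with the values given above, was higher in Y541S than in WT under giredestrant, at 1.30 (95% interval 1.27 to 1.34), and was -0.33 under vehicle, not called. Wnt7b was lowest in Y541S giredestrant and highest in WT vehicle, and the relative log2 ratio of Y541S over WT was -1.19 (95% interval -1.53 to -0.87) under giredestrant and -1.37 (95% interval -1.56 to -1.18) under vehicle. Giredestrant over vehicle was -1.15 (95% interval -1.36 to -0.94) in WT and -0.99 (95% interval -1.32 to -0.68) in Y541S, where it was not called. Secretory Wnt4 was highest in Y541S giredestrant and WT vehicle, with a ratio of 1.37 (95% interval 1.16 to 1.58) for giredestrant over vehicle in Y541S and -0.81 in WT, not called. The hormone-sensing gate gene Areg in secretory cells was 1.54% in Y541S giredestrant, 1.06% in Y541S vehicle, 0.511% in WT giredestrant and 1.37% in WT vehicle of its hormone-sensing level. Fzd5 stood at 17.2 CPM in Y541S giredestrant, 7.65 CPM in Y541S vehicle, 9.12 CPM in WT giredestrant and 8.75 CPM in WT vehicle and was higher with giredestrant in Y541S, at 1.17 (95% interval 0.88 to 1.45). Tcf7l1 stood at 131 CPM in Y541S giredestrant, 66.1 CPM in Y541S vehicle, 60.2 CPM in WT giredestrant and 95 CPM in WT vehicle and was higher in Y541S than in WT under giredestrant, at 1.22 (95% interval 1.10 to 1.34). The other secretory calls, on Wnt2b, Wnt11, Fzd10, Ror2, Lgr5, Sfrp1, Sfrp2, Dkk3, Wif1 and Axin2, had at most 95 UMIs in a library.

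In basal cells, giredestrant over vehicle gave 2 members higher and 1 lower of 40 in Y541S (10.3% of all genes called), and 1 higher and 2 lower of 40 in WT (11.1%). Y541S over WT gave 3 higher and 1 lower of 40 under giredestrant (13.6%), and 2 higher and 4 lower of 40 under vehicle (6.7%). Wnt6, at the values given above, was high in Y541S vehicle and WT giredestrant and low in the other libraries. Its relative log2 ratio of giredestrant over vehicle was -1.23 (95% interval -1.44 to -1.02) in Y541S and 1.68 (95% interval 1.51 to 1.84) in WT. Cells with a Wnt6 UMI were 192 of 3641 cells in Y541S giredestrant, 598 of 2951 cells in Y541S vehicle, 313 of 998 cells in WT giredestrant and 357 of 4832 cells in WT vehicle. These shares were not thinned and depend on depth as well as level. Median depth of basal cells was 5488, 12227, 18248 and 10466.5 UMIs in the same order. Wnt10a, the neighbour of Wnt6, was not called, with ratios of -0.01 in Y541S and -0.65 in WT.

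Rspo1 in basal cells stood at 12.2 CPM in Y541S giredestrant, 1.46 CPM in Y541S vehicle, 1.53 CPM in WT giredestrant and 2.12 CPM in WT vehicle, and Y541S giredestrant was apart from the other 3. The relative log2 ratio of giredestrant over vehicle in Y541S was 3.0 (95% interval 2.58 to 3.44), and that of Y541S over WT under giredestrant was 3.11 (95% interval 2.56 to 3.70). Cells with a Rspo1 UMI were 252 of 3641 cells in Y541S giredestrant, 51 of 2951 cells in Y541S vehicle, 21 of 998 cells in WT giredestrant and 106 of 4832 cells in WT vehicle. These shares too were not thinned, at the basal depths given above. Basal Rspo1 was 9.63% of the secretory level in Y541S giredestrant and 1.63% to 2.04% in the others, while Wfdc18 was 0.529% in Y541S giredestrant, 0.173% in Y541S vehicle, 0.131% in WT giredestrant and 0.149% in WT vehicle of its secretory level and Elf5 1.43% in Y541S giredestrant, 0.147% in Y541S vehicle, 0.251% in WT giredestrant and 0.235% in WT vehicle. Wfdc18 and Elf5 are gate genes, limited in basal cells by the gating. In basal cells with under 3 UMIs per 10000 of each other gate the Rspo1 ratio of giredestrant over vehicle in Y541S was 2.97, called.

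Sfrp1 in basal cells stood at 9.76 CPM in Y541S giredestrant, 13.4 CPM in Y541S vehicle, 11.6 CPM in WT giredestrant and 39.5 CPM in WT vehicle, with WT vehicle above the other 3, and had a relative log2 ratio of -1.92 (95% interval -2.12 to -1.72) for giredestrant over vehicle in WT and -1.57 (95% interval -1.71 to -1.43) for Y541S over WT under vehicle. Sfrp2 stood at 9.50 CPM in Y541S giredestrant, 3.39 CPM in Y541S vehicle, 6.11 CPM in WT giredestrant and 8.36 CPM in WT vehicle, lowest in Y541S vehicle, with 1.42 (95% interval 1.10 to 1.74) for giredestrant over vehicle in Y541S. The 6 fibroblast markers summed to 417 CPM in Y541S giredestrant, 267 CPM in Y541S vehicle, 305 CPM in WT giredestrant and 149 CPM in WT vehicle in basal cells, and their part in the Sfrp values was not tested. Axin2 was highest in Y541S giredestrant, with 1.40 (95% interval 1.03 to 1.78) for Y541S over WT under giredestrant and 0.52 for giredestrant over vehicle in Y541S, not called. Ror2 stood at 13.1 CPM in Y541S giredestrant, 14.8 CPM in Y541S vehicle, 7.23 CPM in WT giredestrant and 5.62 CPM in WT vehicle, higher in Y541S than in WT under vehicle at 1.39 (95% interval 1.20 to 1.60). Lgr5 was lower in Y541S than in WT under vehicle at -1.04 (95% interval -1.09 to -0.99), a call lost after thinning, with doublet-like cells removed and with cells weighted equally. Lef1 had 14 UMIs in Y541S giredestrant, 14 UMIs in Y541S vehicle, 6 UMIs in WT giredestrant and 120 UMIs in WT vehicle, and 1 cell of WT vehicle held 20 of its UMIs. It was called lower at -2.91 for giredestrant over vehicle in WT and -2.51 for Y541S over WT under vehicle. Over all kept cells Lef1 had 38, 16, 29 and 1239 UMIs in the same order. Most Lef1 of WT vehicle thus lay outside basal cells, and its part in the basal values was not tested.

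**Figure D4:**
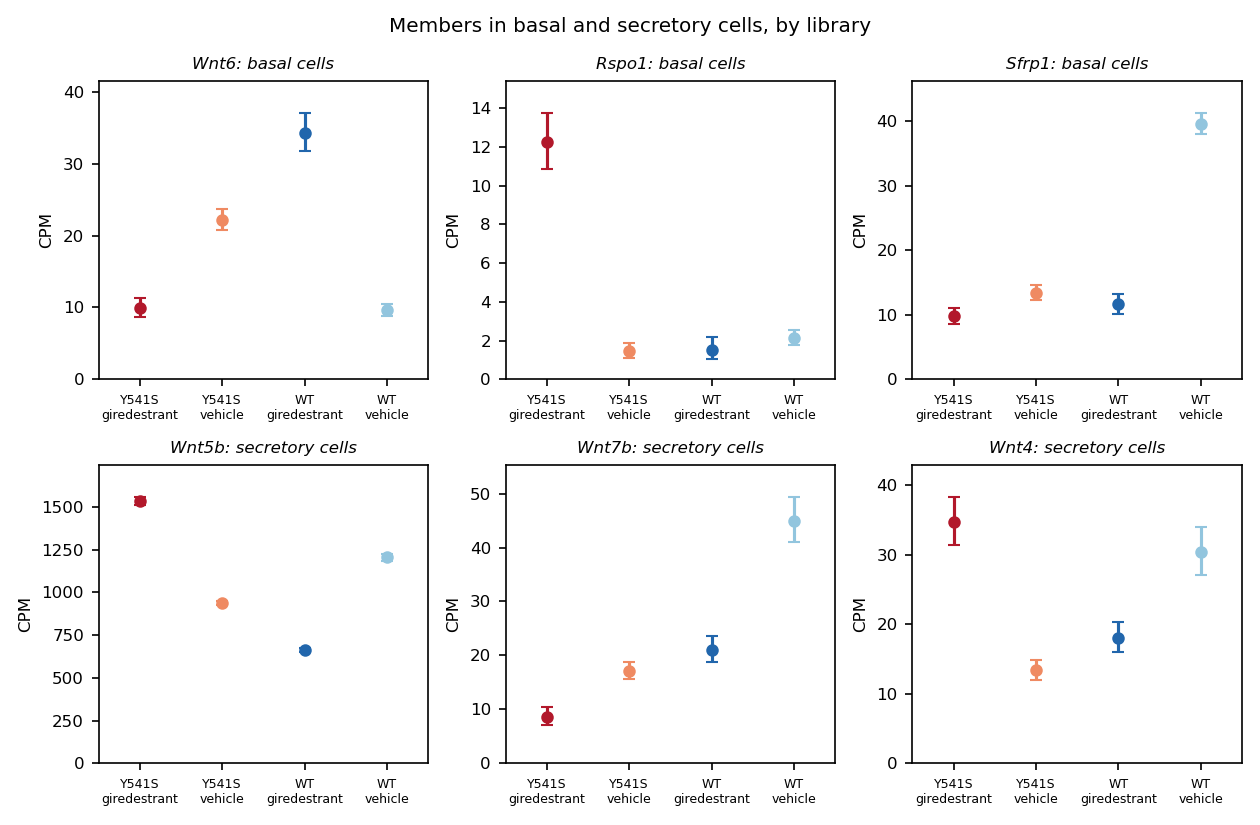
CPM (vertical axes, from 0) of 3 members in basal cells (top) and 3 in secretory cells (bottom) in the 4 libraries (horizontal axes), with exact 95% Poisson intervals for counting error. Basal Rspo1 is at 12.2 CPM in Y541S giredestrant and at 2.12 CPM or less in the other libraries, basal Wnt6 is high in Y541S vehicle and WT giredestrant, and secretory Wnt7b is lowest in Y541S giredestrant.

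The Krt14-high hormone-sensing cells of Y541S giredestrant, 980 cells, carried basal ligands and less Wnt4 than the Krt14-low ones of the same library. As both groups come from 1 library there is no test. Of 36 members, 13 were higher and 3 lower in the Krt14-high cells, where 20.4% of all genes were called. Wnt10a stood at 43.6 CPM against 3.60 CPM in Krt14-low cells, a relative log2 ratio of 3.86 (95% interval 3.46 to 4.28). Wnt6 stood at 8.05 against 0.434 CPM, Wnt11 at 39.7 against 10.1 CPM, Ror1 at 52.0 against 13.2 CPM, Lgr6 at 20.2 against 3.16 CPM and Sfrp1 at 2.24 against 0.310 CPM. Wnt4 stood at 171.8 against 574 CPM, a ratio of -1.48 (95% interval -1.56 to -1.40). Fzd4 and Fzd10 were the other 2 lower ones. Of the hormone-sensing cells of this library, 88 lay within 20% of the Krt14 cut. The 22, 9 and 15 Krt14-high cells of Y541S vehicle, WT giredestrant and WT vehicle were too few to compare.

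The Krt14-high cells held part of the basal set. Against basal cells of the same library, 3 members were higher and 22 lower of 39 in Krt14-high hormone-sensing cells, with 31% of all genes called. Wnt4 and Wnt7b were 20.8-fold and 28.9-fold higher, and Fzd6 2.11-fold. Wnt10a stood at 43.6 CPM against 55.7 CPM in basal cells, with a ratio of -0.36 (95% interval -0.52 to -0.19), and Wnt11 at 39.7 against 20.1 CPM, with 0.98 (95% interval 0.78 to 1.18), neither called. Lgr5 stood at 3.58 CPM against 157.5 CPM in basal cells, Wif1 at 1.01 against 126.7 CPM, Fzd7 at 3.13 against 37.3 CPM and Rnf43 at 4.70 against 57.1 CPM. Of the basal markers in the same Krt14-high cells, Trp63 stood at 163.2 CPM against 184.0 CPM in basal cells and Acta2 at 56.1 CPM against 6612 CPM. Acta2 is a gate gene, limited in the Krt14-high cells by the gating.

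Levels followed the Krt14 steps for some members. With the hormone-sensing cells of Y541S giredestrant parted at 0, above 0 to 3, 3 to 10, 10 to 30 and 30 or more Krt14 UMIs per 10000 (954, 545, 348, 393 and 239 cells), Wnt4 stood at 626, 508, 216, 178 and 98.2 CPM. In the same order Wnt10a stood at 2.12, 5.45, 28.1, 47 and 60.4 CPM, and Ror1 at 10.6, 16.5, 43.6, 59.5 and 51.8 CPM. Lgr6 stood at 2.68, 3.77, 11.4, 22.9 and 28.6 CPM and Wnt11 at 8.70, 11.9, 37.9, 40.5 and 40.9 CPM. Wnt4 was lower and Wnt10a and Lgr6 higher at every step, while Fzd6 stayed between 39.5 and 52.3 CPM with no order. In the Y541S vehicle library Wnt4 was 278.3 CPM at no Krt14 UMI and 244.5 CPM above 0 to 3, and Wnt10a was 0.327 CPM or less.

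**Figure D5:**
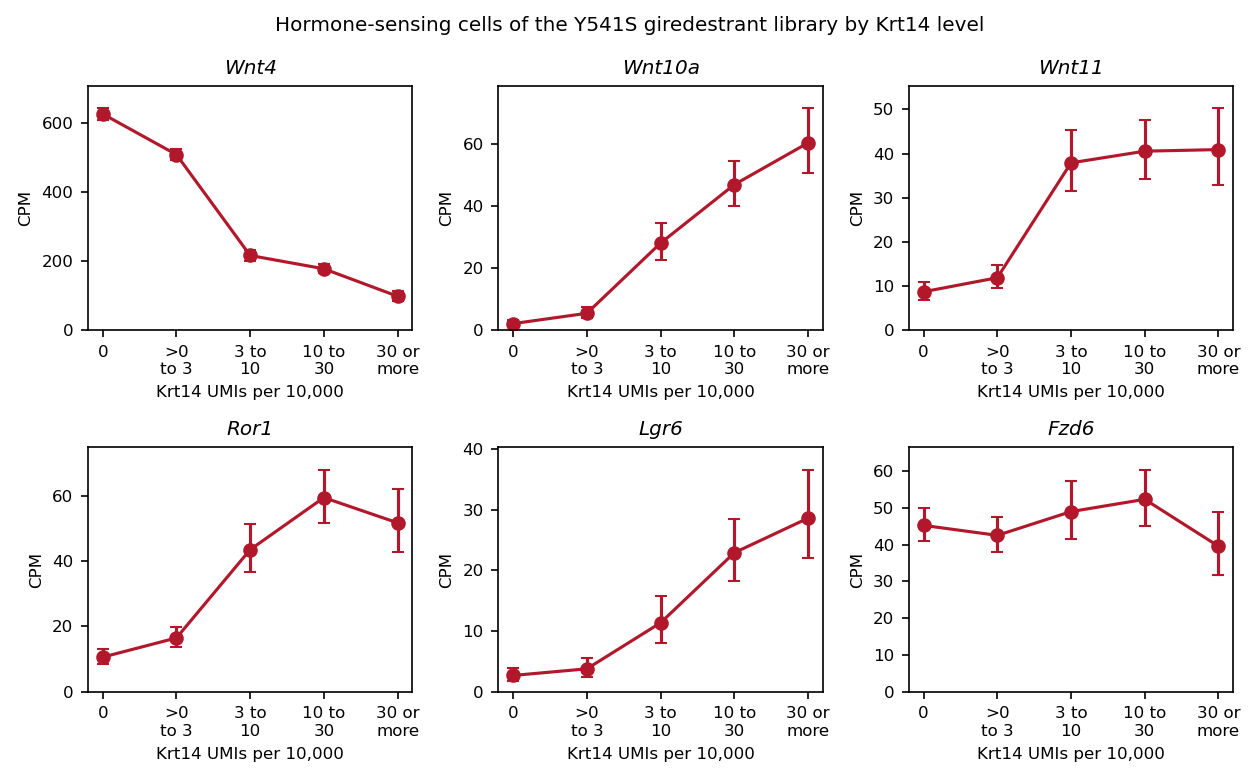
CPM (vertical axes, from 0) of 6 members in hormone-sensing cells of the Y541S giredestrant library grouped by Krt14 UMIs per 10000 (horizontal axes, low to high), with exact 95% Poisson intervals for counting error. Wnt4 declines from 626 to 98.2 CPM over the groups while Wnt10a climbs from 2.12 to 60.4 CPM, and Fzd6 shows no order.

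Of 73 further genes of the pathway or known to respond to it, 57 could be tested between classes. In Krt14-low hormone-sensing cells 6 were higher and 13 lower than in secretory cells (28% of all genes called), and 4 higher and 27 lower than in basal cells (39.4%). In secretory cells 4 were higher and 15 lower than in basal cells (30.5%). In Krt14-low hormone-sensing cells, giredestrant over vehicle gave 12 higher and 3 lower of 49 in Y541S (24.9% of all genes called), and 5 higher and 6 lower of 46 in WT (23.6%). Apart from hormone-sensing over basal cells, these shares lay near those over all genes. Trabd2b, a membrane protease that inactivates Wnt ligands, stood at 2.95 CPM in WT giredestrant against 44.0 CPM in WT vehicle, and at 26.6 CPM in Y541S giredestrant against 61.6 CPM in Y541S vehicle. Giredestrant was the lower of each pair, with relative log2 ratios of -4.34 in WT and -1.55 in Y541S. Cd44, a cell surface glycoprotein known as a Wnt target, stood at 93.1 CPM in Y541S giredestrant against 12.0 CPM in Y541S vehicle, and at 477 CPM in the Krt14-high cells. Prickle2, of the planar polarity branch, stood at 37.5 CPM in Y541S giredestrant against 6.56 CPM in Y541S vehicle. Camk2d, a calcium-dependent kinase, stood at 233.9 CPM in Y541S giredestrant against 50.4 CPM in WT giredestrant. Sfrp5 was lower with giredestrant in both genotypes on 56 UMIs or fewer a library, and Apcdd1, Bmp4, Gpc3, Nkd1, Procr and Wnt9a were higher with giredestrant in Y541S on 86 or fewer. Sostdc1, a secreted inhibitor, had 22 UMIs in WT giredestrant against 0 in WT vehicle.

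The glypican Gpc6, a surface proteoglycan, differed between libraries in both luminal classes. In Krt14-low hormone-sensing cells it stood at 29.4 CPM in WT giredestrant against 4.11 CPM in WT vehicle, a relative log2 ratio of 2.40. In secretory cells it stood at 82.3 CPM in Y541S giredestrant, against 564 CPM in Y541S vehicle, a ratio of -2.78, and against 1085 CPM in WT giredestrant, a ratio of -3.63. The ligand-inactivating hydrolase Notum stood in Krt14-high hormone-sensing cells of Y541S giredestrant at 5.81 CPM, against 0.683 CPM in Krt14-low hormone-sensing cells and 1.05 CPM in basal cells of that library. Dkkl1, a dickkopf-like secreted protein, was lower in the same Krt14-high cells, at 5.93 CPM against 54.3 CPM in the Krt14-low ones.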

How the data were processed

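UMI counts per gene and barcode, with the deposited barcode and gene lists (text with no values), were made by the authors with Cell Ranger 6.0.1, per the file headers, on GRCm38, per the submitters' processing notes. The deposited counts hold 70781982, 132660456, 84215237 and 98223195 UMIs in Y541S giredestrant, Y541S vehicle, WT giredestrant and WT vehicle. They are 3′ tags, so levels of different genes are not compared. Barcodes under 1000 UMIs, under 500 genes or over 15% mitochondrial UMIs were dropped, leaving 4 sets (8622, 7217, 3029 and 7082). Classes were gated at 10 (hormone-sensing and secretory) or 20 (basal) summed UMIs per 10000, with Krt14 split at 3. Cells past more than 1 gate (267, 291, 157 and 103), and those past none, were left out. No doublet caller was applied for the main values: Scrublet's automatic cut marked 0.0282% of WT vehicle cells and so had not worked there, and removal of the highest scores was an alternative.

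Sums per class and library were compared with exact conditional binomial intervals (SciPy 1.17.1) between libraries, and with edgeR 4.0.16 (R 4.3.3) between classes, with at least 50 cells a sum and genes filtered on low counts. Intervals and floors cover counting error only, as 1 library is a group. A planned edgeR test of Krt14-high against Krt14-low cells could not be fitted, since Krt14-high sums reached 50 cells in 1 library. DESeq2 1.42.0 was an alternative. The class test and the interval were tested on simulated data. Cells were clustered nowhere, and no cell has a type beyond its gate. Members are described by library where called in any comparison, and wider genes named where called at 4-fold or more between libraries or between Krt14 groups. The members and lists were chosen with earlier results of these data known. Promoter windows are from RefSeq on GRCm38.p6.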

Additional observations from a re-analysis of the deposited data

Results flagged for a closer look

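Called differences that ran in opposite directions were found for 7 members. The share of all genes with opposite calls is not given, so this count does not set the members apart from other genes. In each case the difference between the effects was not tested, since each group is 1 library, and the values are relative log2 ratios. In Krt14-low hormone-sensing cells, giredestrant over vehicle gave 1.36 in Y541S and -1.81 in WT for Lgr5, on 28, 29, 11 and 15 UMIs in Y541S giredestrant, Y541S vehicle, WT giredestrant and WT vehicle. For Rnf43 it gave -1.92 in Y541S and 1.10 in WT, and for Dkk3 it gave 1.32 in Y541S and -3.80 in WT. In the same cells, Y541S over WT gave -3.97 under giredestrant and 1.35 under vehicle for Ror2. Both Lgr5 calls and the WT call of Dkk3 were lost under at least 1 setting.

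In secretory cells, giredestrant over vehicle gave -1.20 in Y541S and 1.83 in WT for Sfrp2, and Y541S over WT gave -1.71 under giredestrant and 1.30 under vehicle, on 14 to 86 UMIs a library. Secretory Wnt4 gave 1.04 for Y541S over WT under giredestrant and -1.16 under vehicle. The Wnt4 call under giredestrant and all secretory Sfrp2 calls were lost under at least 1 setting. In basal cells, Wnt6 gave -1.23 in Y541S and 1.68 in WT for giredestrant over vehicle, and -1.68 under giredestrant and 1.20 under vehicle for Y541S over WT.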

How the results depend on the processing

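No paired analysis was possible because each group is 1 library and the labels give no replicate numbers. Of 87 calls between libraries, 41 held under every setting tried and 46 were lost under at least 1. For calls between libraries, shares over all genes are given for the main setting only. The counts of such calls in this section are therefore not set against other genes. Thinning to 3000 UMIs, which lowers counts and drops cells under 3000 UMIs, lost 36, assigning cells past several gates by priority 16, and weighting cells equally 12. Keeping only cells low in the other gates, chosen after seeing the data, lost 14. For giredestrant over vehicle, the called members in Y541S numbered 8 by priority and 5 thinned, against 14, in Krt14-low hormone-sensing cells, and 2 by priority and 3 thinned, against 6, in secretory cells. In WT they numbered 7 thinned, against 15, in Krt14-low hormone-sensing cells, 1 thinned, against 6, in secretory cells, and 5 in cells low in other gates, against 3, in basal cells. For Y541S over WT under giredestrant they numbered 6 thinned and 6 in cells low in other gates, against 10, in secretory cells, and 9 weighted equally, against 4, in basal cells. Under vehicle they numbered 7 weighted equally, against 4, in Krt14-low hormone-sensing cells, and 8 weighted equally, 8 by priority and 3 thinned, against 5, in secretory cells.

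Values that reversed numbered 6, and the cause was not tested. For giredestrant over vehicle in WT, Lgr5 was 0.17 by priority in Krt14-low hormone-sensing cells and 0.59 thinned in secretory cells, and thinned Wnt5b and Rspo1 were -0.53 and -0.56 in Krt14-low hormone-sensing cells. In the same cells Ror1 was -0.17 by priority for Y541S over WT under giredestrant, and Wnt5b was -1.22 thinned under vehicle. Members called between classes, 25, 28 and 31 for Krt14-low hormone-sensing over secretory, over basal and secretory over basal, numbered 21 to 26, 26 to 30 and 29 to 30 with each library left out in turn, and 21 to 26, 26 to 30 and 29 to 31 under all settings. Members with under 20 UMIs over both libraries could not be compared at this depth.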

Other observations

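Cells past a fibroblast gate numbered 38, 36, 35 and 51 in Y541S giredestrant, Y541S vehicle, WT giredestrant and WT vehicle. Wnt2 had 9, 24, 28 and 19 UMIs in them, in the same order, and at most 4 UMIs in any epithelial class of a library. The decoy Sfrp2 stood at 467.7, 238, 524 and 162 CPM there and Sfrp1 at 248, 171.5, 145 and 37.0 CPM. In basal cells Sfrp2 stood at 3.39 to 9.50 CPM and Sfrp1 at 9.76 to 39.5 CPM. These are small groups of cells, and no library was compared with another.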
